A study of Mus musculus with 121 samples.

Results

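Cholesterol and fatty acid synthesis genes were followed over 3 brain regions, 2 mouse models and 3 Gdnf genotypes. The members are 27 genes of 24412 in the count table, picked by symbol from a list of enzymes and regulators with earlier results of these data known, and all 27 symbols were found. Of these, 7 encode enzymes of the mevalonate branch and 11 encode enzymes that turn isoprenoid units into squalene and cholesterol. A further 3 act in sterol regulation or transport, and 6 make or modify fatty acids. The mevalonate genes are Acat2, Hmgcs1, Mvk, Pmvk, Mvd, Idi1 and Fdps, which join acetyl units, phosphorylate and decarboxylate mevalonate and build farnesyl diphosphate. The sterol genes are Fdft1, Sqle and Lss, which make, oxidise and close squalene, Cyp51, Msmo1, Nsdhl and Hsd17b7, which demethylate the ring, Tm7sf2 and Dhcr7, which are reductases, Ebp, an isomerase, and Sc5d, a desaturase. Srebf2 encodes the SREBP-2 factor, Insig1 acts in sterol sensing and Stard4 carries sterols. Acly, Acaca, Fasn, Elovl6, Scd1 and Scd2 are the fatty acid genes.

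Cells build both cholesterol and fatty acids from acetyl-CoA, the first by way of mevalonate, farnesyl diphosphate and squalene. Most of the enzymes are transcriptional targets of SREBP factors, which stay in the endoplasmic reticulum with SCAP and INSIG proteins when sterols are plentiful and move to the nucleus when sterols run low. The adult brain makes nearly all of its own cholesterol, much of it in oligodendrocytes for myelin, and astrocytes supply lipid to neurons.

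RNA was sequenced from the prefrontal cortex (PFC), striatum (STR) and substantia nigra (SN) of male mice on a mixed 129Ola, ICR and C57bl6 background. The allele under study is a conditional Gdnf allele, cKU (named cHyper in the paper), from which Cre raises Gdnf in cells that normally express the gene. The study asked what such a rise does to dopamine signalling and gene expression. WT mice are wt/wt, HET mice wt/cKU and HOM mice cKU/cKU littermates.

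In the Nestin-Cre model, 21 mice aged 2 months gave 56 libraries, with Cre driven by Nestin regulatory sequences in neural precursors from before birth. In the AAV-Cre model, 22 mice received AAV5-Cre into the striatum on both sides at 3 to 5 months and gave 65 libraries at 5 to 7 months of age. WT mice of both models also carried or received Cre, so no group lacks it. The numbers of WT, HET and HOM libraries in Nestin-Cre mice were 8, 6 and 4 in PFC, 6, 7 and 6 in STR and 6, 7 and 6 in SN. In AAV-Cre mice they were 7, 7 and 8 in PFC, 7, 7 and 7 in STR and 7, 7 and 8 in SN, with 1 library per mouse and region. Total counts per library ran from 9869584 to 26750905, with a median of 17885830. Levels are cpm, counts scaled to library size, after TMM scaling over all 121 libraries, as mean ± SD over libraries. Tests are the edgeR quasi-likelihood F test across all genes of a fit, with log2 fold changes, standard errors (SE) and Benjamini-Hochberg adjusted p, and a gene is called where the adjusted p is under 0.1.

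Markers of each region were highest under its label. In WT mice of the Nestin-Cre model, 7 striatal projection neuron markers summed to 9758 ± 1108 cpm in STR (n = 6), 539 ± 151 in PFC (n = 8) and 219 ± 32.5 in SN (n = 6). The 6 cortical excitatory neuron markers summed to 2127 ± 131 cpm in PFC, 146 ± 136 in STR and 91.1 ± 91.4 in SN, and the 7 midbrain dopamine neuron markers to 2833 ± 506 cpm in SN, 57.1 ± 14 in PFC and 47.8 ± 23.9 in STR. Some libraries stand apart. Libraries N_PFC_WT_4575, N_STR_HOM_4575 and N_SN_HOM_4575 share a mouse number but not a genotype, and their labels were kept as they stand. The 5 choroid plexus markers, led by Ttr, summed to between 1277 and 20030 cpm in 9 libraries and to at most 307 cpm in the other 112. Those 9 are A_PFC_HET_3676, A_SN_HET_3676, A_STR_HET_3610, A_STR_HET_3750, A_STR_HOM_3607, A_STR_HOM_3690, A_STR_WT_3585, A_STR_WT_3588 and N_STR_HET_4566 (A for AAV-Cre, N for Nestin-Cre). Some libraries also held markers of another region. Striatal projection neuron markers summed to 1328 cpm in N_SN_HET_4566 and 735 cpm in A_SN_WT_3587, and to at most 315 cpm in the other SN libraries. Cortical markers summed to 523, 320 and 314 cpm in N_STR_HOM_4569, N_STR_WT_4326 and N_STR_WT_4609, against at most 171 cpm in the other STR libraries, and to 341 cpm in A_SN_HOM_3611. Comparisons that use any of these 6 libraries were also fitted without them. Only STR and SN libraries were screened in this way. In PFC libraries striatal projection neuron markers summed to between 233 cpm (N_PFC_HOM_4580) and 1420 cpm (A_PFC_WT_3649). No PFC library was left out on this ground.

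Gdnf itself was most abundant in STR. In Nestin-Cre STR it was at 5.98 ± 1.27 cpm in WT, 6.25 ± 1.83 in HET and 7.26 ± 1.47 in HOM mice, and in AAV-Cre STR at 6.65 ± 0.731, 7.63 ± 1.06 and 8.76 ± 0.888 cpm. In Nestin-Cre PFC the 3 genotypes were at 0.49 ± 0.263, 0.429 ± 0.288 and 0.255 ± 0.263 cpm, and in Nestin-Cre SN at 0.404 ± 0.0872, 0.614 ± 0.443 and 0.639 ± 0.178 cpm. AAV-Cre PFC held 0.849 ± 0.342, 1.07 ± 0.563 and 0.892 ± 0.457 cpm and AAV-Cre SN 0.318 ± 0.319, 0.457 ± 0.206 and 0.471 ± 0.221 cpm. Gdnf was not called in any genotype comparison in which it passed the filter, and its largest such difference, in AAV-Cre STR HOM against WT, was a log2 fold change of 0.40 (SE 0.09, adjusted p = 0.504). The mRNA of the Cre-released allele ends in a shorter 3′ untranslated region than that of the WT allele, so exon counts of the genotypes do not cover the same length, and what this takes from the counts of HET and HOM mice was not tested.

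All 27 members passed the filter of 1 cpm in 3 libraries in every fit. In WT mice they summed to 4204 ± 138 cpm in PFC, 3829 ± 168 in STR and 6889 ± 1023 in SN of the Nestin-Cre model, and to 4317 ± 96.6, 4261 ± 245 and 6456 ± 287 cpm in the AAV-Cre model. Scd2, a desaturase that makes monounsaturated fatty acids, was by itself a large share of this sum, with 1785 cpm in Nestin-Cre WT PFC and 3472 cpm in SN. Per exon length (RPKM), Scd2 ranked first of the 27 in WT mice of all 6 model and region groups, from 327 ± 12.4 RPKM in Nestin-Cre PFC to 637 ± 131 in Nestin-Cre SN. Hmgcs1, which makes HMG-CoA for the mevalonate branch, ranked second in PFC of both models, at 86 ± 9.89 and 75.5 ± 10.8 RPKM. Acly, the enzyme that frees acetyl-CoA from citrate in the cytosol, ranked second in STR of both models, at 67.8 ± 4.43 and 75.6 ± 5.18 RPKM. Idi1, an isomerase of isoprenoid units, ranked last in all 6 groups, from 0.767 ± 0.126 RPKM in AAV-Cre STR to 2.91 ± 0.147 in Nestin-Cre SN. Within groups, the pooled SD of log2 cpm ran from 0.11 for Acly to 0.25 for Idi1, with 0.23 for Insig1, against a median of 0.20 over all genes above the filter. For that median 0.5 cpm was added before taking logs and for the members it was not, so the measures differ slightly.

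The regions of WT mice were compared to see where the pathway is transcribed without the Gdnf allele. In both models most members were at their highest level in SN and at their lowest in STR, and Scd1, Insig1, Sqle and Idi1 were among the largest differences. Srebf2, which encodes the SREBP-2 factor itself, and Tm7sf2, a sterol reductase, went the other way and were higher in PFC than in SN. Acly was highest in STR.

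In Nestin-Cre WT mice, 19 members were called higher and 3 lower in SN than in PFC, where 37.6% and 41.2% of 14926 genes tested were called higher and lower. The median log2 fold change was 0.60 over the members and -0.03 over all genes. Scd1, the other main stearoyl-CoA desaturase, was at 624 ± 121 cpm in SN (486 to 778 over 6 libraries) and 236 ± 26 cpm in PFC (194 to 256 over 8), a log2 fold change of 1.39 (SE 0.11, adjusted p = 2.19e-10). The 2 groups of Scd1 libraries did not overlap. Msmo1, which removes methyl groups from early sterols, was at 238 ± 35.8 cpm in SN and 105 ± 6.52 in PFC (log2 fold change 1.16, SE 0.07, adjusted p = 4.57e-12), and Insig1, which holds SCAP in the endoplasmic reticulum, at 120 ± 15.6 and 58.1 ± 8.72 cpm (1.03, SE 0.11, adjusted p = 2.44e-08). Both genes were above the PFC mean in 6 of 6 SN libraries. The 3 members lower in SN were Srebf2 (158 ± 17.2 against 239 ± 26.8 cpm, log2 fold change -0.61, SE 0.08, adjusted p = 9.22e-07), Tm7sf2 (14.9 ± 1.32 against 21.1 ± 2.32 cpm, -0.52, SE 0.09, adjusted p = 4.39e-05) and the fatty acid synthase gene Fasn (337 ± 62.5 against 408 ± 36.4 cpm, -0.29, SE 0.10, adjusted p = 0.0143). For Fasn the libraries overlapped, with 5 of 6 SN libraries below the PFC mean, and with all 3 genotypes in the fit its log2 fold change was -0.18, still called. By role, 6 of 7 mevalonate, 7 of 11 sterol, 2 of 3 regulation and 4 of 6 fatty acid genes were called higher in SN.

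Against STR, 23 members were called higher and 2 lower in SN of Nestin-Cre WT mice, with 37.8% and 38.3% of all genes. Here the median was 0.86 over the members and 0.01 over all genes. The 3 largest differences were those of Scd1 (624 ± 121 against 219 ± 33.2 cpm, log2 fold change 1.51, SE 0.12, adjusted p = 2.95e-10), Insig1 (120 ± 15.6 against 42.6 ± 6.89 cpm, 1.49, SE 0.12, adjusted p = 3.84e-10) and Sqle, the squalene epoxidase at a rate-limiting step (128 ± 10.9 against 47.7 ± 3.99 cpm, 1.42, SE 0.07, adjusted p = 1.12e-13). All 6 SN libraries were above every STR library for these 3 genes. Srebf2 was lower in SN (-0.26, SE 0.09, adjusted p = 0.0129), as was Acly (-0.19, SE 0.07, adjusted p = 0.0175), each with 5 of 6 SN libraries below the STR mean. With the likelihood ratio test the adjusted p of Acly was 0.108 (0.013 to 0.108 over its alternatives), so its call was lost, and with all 3 genotypes in the fit its log2 fold change was -0.09. Tm7sf2 and Fasn were not called. The value for Tm7sf2 was 0.00 (SE 0.10, adjusted p = 0.973).

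In STR against PFC of Nestin-Cre WT mice, 2 members were called higher and 20 lower, with 34.2% and 34% of all genes, and the median was -0.35 over the members and 0.00 over all genes. Acaca, the acetyl-CoA carboxylase that commits carbon to fatty acids, was at 33.6 ± 2.35 cpm in STR and 65.8 ± 4.07 in PFC (log2 fold change -0.98, SE 0.09, adjusted p = 7.93e-09). Stard4, a sterol carrier, was at 26.5 ± 5.66 against 45.1 ± 5.94 cpm (-0.78, SE 0.11, adjusted p = 4.64e-06), and Dhcr7, the last enzyme of one branch to cholesterol, at 26.5 ± 2.38 against 42.9 ± 2.4 cpm (-0.71, SE 0.08, adjusted p = 1.81e-07). In all 3 genes the STR libraries lay below every PFC library. The members called higher in STR were Acly (0.36, SE 0.07, adjusted p = 6.92e-05, 6 of 6 libraries above the PFC mean) and the sterol isomerase gene Ebp (0.16, SE 0.08, adjusted p = 0.067, 5 of 6). The call for Ebp was lost with mouse as a replicate block, where its log2 fold change was 0.13 and its adjusted p 0.172 (0.00484 to 0.277 over its alternatives). Msmo1, next in order, was not called (0.12, SE 0.07, adjusted p = 0.157). Without N_STR_WT_4326 and N_STR_WT_4609, the STR libraries higher in cortical markers, Ebp was at 0.27 and Msmo1 was called at 0.20, with an adjusted p of 0.0448 (0.0448 to 0.656), and 3 members were called higher and 17 lower.

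The order of regions in AAV-Cre WT mice was like that in the younger mice. In SN against PFC, 22 members were called higher and 2 lower, with 37.7% and 36.4% of 15043 genes, and medians of 0.37 over the members and 0.01 over all genes. Idi1 was at 6.66 ± 0.935 cpm in SN and 2.93 ± 0.509 in PFC (log2 fold change 1.21, SE 0.13, adjusted p = 1.73e-08), Elovl6, which lengthens palmitate to stearate, at 107 ± 7.87 and 49.2 ± 4.66 cpm (1.15, SE 0.07, adjusted p = 1.95e-12), and Scd1 at 550 ± 45.8 and 268 ± 19.8 cpm (1.07, SE 0.10, adjusted p = 1.67e-09). All 7 SN libraries were above every PFC library in these genes. Tm7sf2 (-0.27, SE 0.08, adjusted p = 0.00544) and Srebf2 (-0.25, SE 0.06, adjusted p = 0.00103) were lower in SN, each in 7 of 7 libraries against the PFC mean, while Mvd, a decarboxylase of the mevalonate branch, was not called (-0.11, SE 0.09, adjusted p = 0.251).

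AAV-Cre SN against STR gave 25 members higher and 1 lower, with 39.7% and 35.9% of all genes, and medians of 0.87 and 0.03. Idi1 was at 6.66 ± 0.935 cpm in SN and 2.2 ± 0.362 in STR (log2 fold change 1.64, SE 0.13, adjusted p = 1.2e-10), Sqle at 95.4 ± 5.83 and 34.8 ± 4.07 cpm (1.49, SE 0.06, adjusted p = 3.4e-15), and Insig1 at 88.4 ± 6.22 and 33.6 ± 4.09 cpm (1.43, SE 0.08, adjusted p = 1.48e-13). In each of them every SN library was above every STR library. Acly was the member lower in SN (-0.16, SE 0.05, adjusted p = 0.0057, 7 of 7 below the STR mean). Srebf2 was not called (0.02, SE 0.06, adjusted p = 0.769) and turned to -0.02 without the libraries high in choroid plexus markers. Tm7sf2 was higher (0.21, SE 0.08, adjusted p = 0.0261, 6 of 7 libraries), a call that was lost without 2 of those libraries, A_STR_WT_3585 and A_STR_WT_3588, at 0.14.

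AAV-Cre STR against PFC gave 3 members higher and 20 lower, with 33.8% and 31.8% of all genes, and medians of -0.49 and 0.02. Hmgcs1 was at 132 ± 15.8 cpm in STR and 270 ± 38.8 in PFC (log2 fold change -1.04, SE 0.09, adjusted p = 4.47e-10), Sqle at 34.8 ± 4.07 and 63.7 ± 3.49 cpm (-0.87, SE 0.06, adjusted p = 5.85e-11) and Mvd at 11 ± 1.67 and 20.2 ± 2.35 cpm (-0.87, SE 0.09, adjusted p = 1.47e-08). Every STR library was below every PFC library for these enzymes. The members higher in STR were 3 fatty acid genes, Acly (0.58, SE 0.05, adjusted p = 5.75e-10), Scd2 (0.20, SE 0.05, adjusted p = 0.00105) and Elovl6 (0.20, SE 0.07, adjusted p = 0.0212), above the PFC mean in 7, 7 and 6 of 7 libraries.

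**Figure D1:**
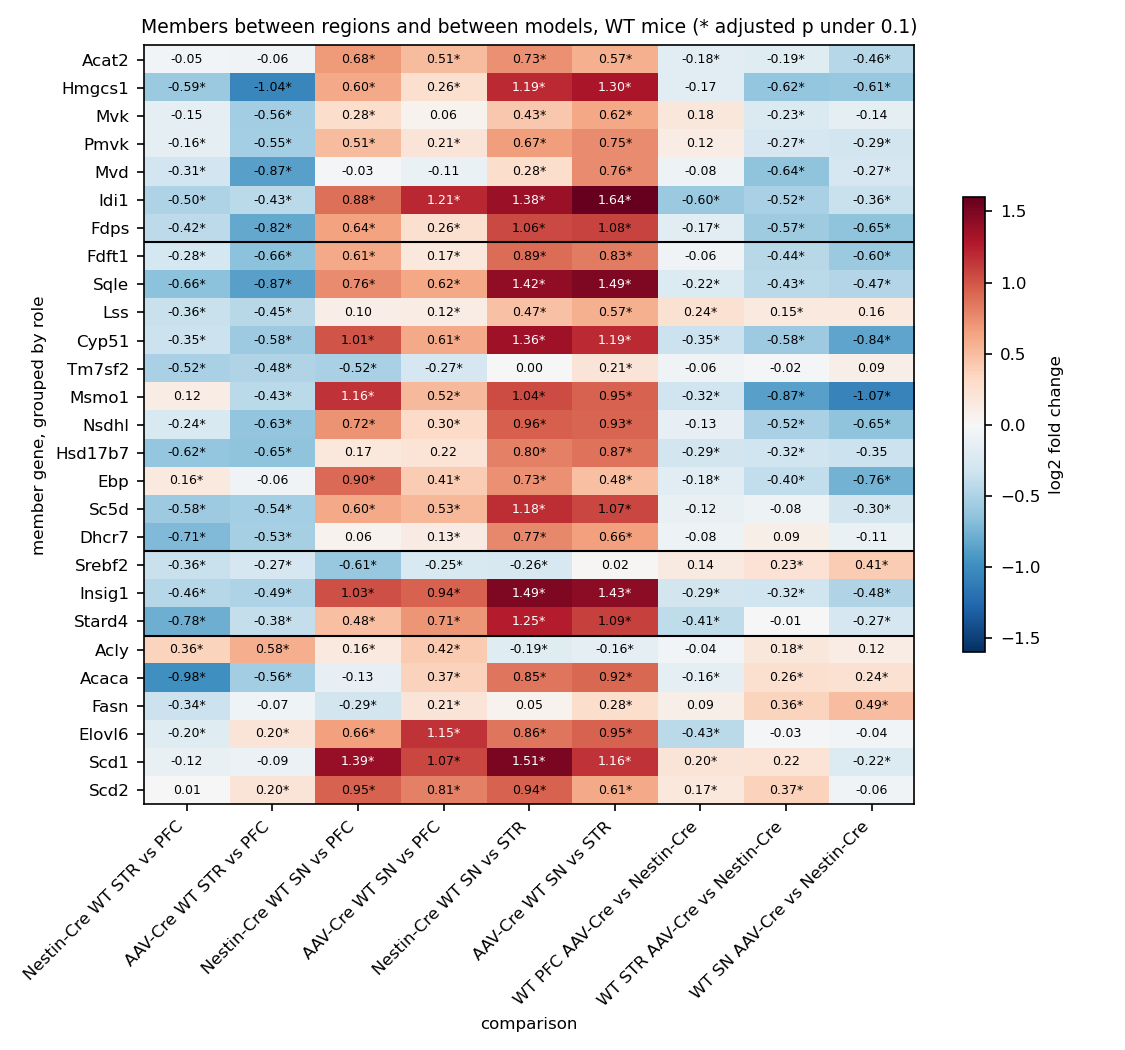
Heat map of log2 fold changes of the 27 members (vertical axis, grouped by role) in 9 comparisons of WT groups (horizontal axis): regions within each model and models within each region. Colour gives the log2 fold change and marked cells are called; the SN against STR columns hold 23 and 25 members called higher, and the 2 STR against PFC columns 20 called lower each.

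Markers of mature oligodendrocytes moved with region as well. The 12 markers, of which Mbp was the most abundant, summed in Nestin-Cre WT mice to 5644 ± 936 cpm in PFC, 9090 ± 2407 in STR and 27584 ± 6563 in SN, and in AAV-Cre WT mice to 4976 ± 442, 10561 ± 1826 and 17217 ± 2571 cpm. In every WT region comparison but AAV-Cre SN against STR, with 11, all 12 were called higher in SN than in STR or PFC and in STR than in PFC. So the order of regions was PFC, STR, SN for these markers and STR, PFC, SN for most members. In bulk tissue, fewer cells of a type and less RNA per cell cannot be told apart, and the part of oligodendrocyte content in the members' levels was not tested. The 8 astrocyte markers summed to 5725 ± 515 cpm in PFC, 4744 ± 176 in STR and 6337 ± 994 in SN of Nestin-Cre WT mice, and the 8 neuron markers to 8169 ± 535, 5435 ± 322 and 5628 ± 535 cpm. Precursor and newly formed oligodendrocyte markers (8 genes) summed to 409 ± 24, 470 ± 75.7 and 1048 ± 227 cpm, microglia markers (6) to 408 ± 29.9, 548 ± 49.7 and 583 ± 111 cpm, and endothelial markers (5) to 199 ± 23.5, 142 ± 20.9 and 142 ± 16 cpm in the same order.

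Next, WT mice of the 2 models were compared within a region. They differ in age, in the source of Cre, in injection and in cohort, and these cannot be told apart. In STR and SN the older, injected AAV-Cre mice had lower levels of most mevalonate and sterol enzymes, most of all Msmo1, and in STR higher levels of 4 fatty acid genes. In PFC fewer of these enzymes were called.

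In SN, 3 members were called higher and 16 lower in AAV-Cre than in Nestin-Cre WT mice, where 30.5% and 31.9% of 14704 genes were. The median log2 fold change was -0.29 over the members and -0.01 over all genes. Msmo1 was at 117 ± 7.73 cpm (n = 7) against 238 ± 35.8 (n = 6), a log2 fold change of -1.07 (SE 0.09, adjusted p = 2.65e-06). Cyp51, which demethylates lanosterol, was at 88.7 ± 7.77 against 155 ± 12.3 cpm (-0.84, SE 0.07, adjusted p = 2.18e-06), and Ebp at 20.2 ± 1.09 against 33.3 ± 3.41 cpm (-0.76, SE 0.07, adjusted p = 4.07e-06). All 7 AAV-Cre libraries lay below every Nestin-Cre library in these 3 sterol genes. The members higher in AAV-Cre SN were Fasn (487 ± 36.7 against 337 ± 62.5 cpm, 0.49, SE 0.09, adjusted p = 0.000498), Srebf2 (216 ± 12.2 against 158 ± 17.2 cpm, 0.41, SE 0.06, adjusted p = 7.51e-05) and Acaca (0.24, SE 0.11, adjusted p = 0.0779), above the Nestin-Cre mean in 7, 7 and 6 of 7 libraries. By role, 6 of 7 mevalonate and 7 of 11 sterol genes were called lower and 0 higher, and of 6 fatty acid genes 2 were called higher and 1 lower. All 12 mature oligodendrocyte markers were also called lower in AAV-Cre SN, with a median of -1.01, as were 5 of 8 astrocyte and 3 of 6 microglia markers (1 and 0 higher), and 3 of 5 endothelial markers were called higher. Their part was not tested.

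In STR, 6 members were called higher and 15 lower in AAV-Cre WT mice, with 32% and 29.9% of 14449 genes, and medians of -0.23 and 0.02. Msmo1 was at 62 ± 7.47 against 115 ± 8.17 cpm (log2 fold change -0.87, SE 0.08, adjusted p = 5.17e-06), Mvd at 11 ± 1.67 against 17.5 ± 2.13 cpm (-0.64, SE 0.11, adjusted p = 0.000214) and Hmgcs1 at 132 ± 15.8 against 206 ± 17 cpm (-0.62, SE 0.08, adjusted p = 4.21e-05). The AAV-Cre libraries of these enzymes lay below all Nestin-Cre libraries. All 7 mevalonate genes were called lower, and 4 of 6 fatty acid genes higher. Scd2 (2293 ± 154 against 1806 ± 94.8 cpm, 0.37, SE 0.06, adjusted p = 0.000161), Fasn (0.36, SE 0.08, adjusted p = 0.00211) and Acaca (0.26, SE 0.07, adjusted p = 0.00416) had the largest positive differences, each with 7 of 7 libraries above the Nestin-Cre mean. With all 3 genotypes in the fit Mvd was at -0.38 and stayed called.

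Other cell types moved in the same STR comparison. In contrast to SN, 4 of the 12 mature oligodendrocyte markers were called higher and 1 lower here, with a median of 0.16. Striatal projection neuron markers summed to 7004 ± 766 cpm in AAV-Cre against 9758 ± 1108 in Nestin-Cre WT mice (1 of 7 called higher and 5 lower), and neuron markers to 4409 ± 219 against 5435 ± 322 cpm (0 of 8 higher and 4 lower). Endothelial markers summed to 204 ± 27 against 142 ± 20.9 cpm (3 of 5 higher and 0 lower) and choroid plexus markers to 2117 ± 3359 against 144 ± 98 cpm (5 of 5 higher). The part of these lists in the members' differences was not tested.

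In PFC, 3 members were called higher and 12 lower in AAV-Cre WT mice, with 24.3% and 22.6% of 14461 genes, and medians of -0.13 and 0.02. Idi1 was at 2.93 ± 0.509 against 4.49 ± 0.621 cpm (log2 fold change -0.60, SE 0.14, adjusted p = 0.00246), Elovl6 at 49.2 ± 4.66 against 66.7 ± 3.8 cpm (-0.43, SE 0.06, adjusted p = 9.13e-05) and Stard4 at 33.7 ± 3.7 against 45.1 ± 5.94 cpm (-0.41, SE 0.09, adjusted p = 0.00147). All 7 AAV-Cre libraries were below the Nestin-Cre mean for each. Lss, which closes the sterol rings (0.24, SE 0.06, adjusted p = 0.00384, 7 of 7 libraries above the Nestin-Cre mean), and Scd1 (0.20, SE 0.07, adjusted p = 0.0282, 6 of 7) were higher, as was Scd2. Mvk, the mevalonate kinase, was next and not called (0.18, SE 0.10, adjusted p = 0.139). By role, 3 of 7 mevalonate and 5 of 11 sterol genes were called lower and 0 and 1 higher, and of 6 fatty acid genes 2 were called higher and 2 lower. With all 3 genotypes in the fit Stard4 was at -0.14, Idi1 at -0.33 and Lss at 0.16, and 7 members were called higher and 9 lower, 10 of them among the original 15.

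Markers of several cell types moved in PFC as well. Of the mature oligodendrocyte markers 7 of 12 were called lower, with a median of -0.30. Neuron markers summed to 6897 ± 657 cpm in AAV-Cre against 8169 ± 535 in Nestin-Cre WT mice (0 of 8 called higher and 4 lower), astrocyte markers to 6527 ± 285 against 5725 ± 515 cpm (6 of 8 higher and 0 lower) and microglia markers to 505 ± 60.6 against 408 ± 29.9 cpm (6 of 6 higher). Striatal projection neuron markers summed to 931 ± 369 against 539 ± 151 cpm, with 7 of 7 called higher. What these lists contribute to the members' differences was not tested.

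Whether a region difference depends on the model was tested as the difference of differences in the 6 WT groups, over 15318 genes. For STR against PFC, 5 members were called higher and 10 lower in AAV-Cre mice, with 15.2% and 14.1% of all genes. Mvd (log2 difference -0.56, SE 0.12, adjusted p = 0.00123), Msmo1 (-0.55, SE 0.10, adjusted p = 0.000257) and Hmgcs1 (-0.45, SE 0.12, adjusted p = 0.00737) were the lowest, and Acaca (0.42, SE 0.12, adjusted p = 0.00996), Stard4 (0.40, SE 0.14, adjusted p = 0.03) and Elovl6 (0.39, SE 0.12, adjusted p = 0.0187) the highest. The 10 lower members were all mevalonate or sterol enzymes, 5 of each. Of the 5 higher ones 4 were fatty acid genes.

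For SN against PFC, 5 members were called higher and 11 lower in AAV-Cre mice, with 25.3% and 19.8% of all genes. Msmo1 (-0.69, SE 0.10, adjusted p = 2.1e-06), Ebp (-0.52, SE 0.10, adjusted p = 4.94e-05) and Fdft1, the squalene synthase (-0.48, SE 0.10, adjusted p = 0.00026), were the lowest. Fasn (0.46, SE 0.12, adjusted p = 0.00188), Acaca (0.45, SE 0.12, adjusted p = 0.0023) and Elovl6 (0.45, SE 0.12, adjusted p = 0.00367) were the highest. The split was again between mevalonate and sterol enzymes on the lower and fatty acid genes on the higher side, apart from Scd1, which was called lower, and Srebf2, which was called higher. For SN against STR, 2 members were called higher and 3 lower, with 19.3% and 14.7% of all genes. Mvd (0.43, SE 0.13, adjusted p = 0.0112) and Srebf2 (0.24, SE 0.10, adjusted p = 0.0873) were called higher, and Scd1 (-0.39, SE 0.16, adjusted p = 0.0618), Scd2 (-0.37, SE 0.11, adjusted p = 0.0102) and Ebp (-0.30, SE 0.10, adjusted p = 0.0254) lower, while Idi1, next highest at 0.21 (SE 0.18, adjusted p = 0.398), was not. Without A_STR_WT_3585 and A_STR_WT_3588, high in choroid plexus markers, Srebf2 kept its 0.24 but had an adjusted p of 0.119 (0.0362 to 0.228 over its alternatives), and Ebp lost its call with the likelihood ratio test at 0.244 (0.0114 to 0.244). Without N_STR_WT_4326, N_STR_WT_4609 and A_SN_WT_3587, which hold markers of another region, 1 member was called higher and 2 lower. Srebf2 (0.21, adjusted p = 0.187) and Scd1 (-0.39, adjusted p = 0.121, 0.0338 to 0.121 over its alternatives) then lost their calls.

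Each Gdnf genotype was then compared with WT in each region of each model, to ask whether a Cre-released Gdnf allele changes the pathway. HET and HOM share their WT mice within a region. Most mice gave libraries of several regions, so the regions of a model are not independent results. No member passed the test in any of the 12 comparisons. In Nestin-Cre mice most members had negative log2 fold changes and in AAV-Cre mice most had positive ones, from -0.43 (Insig1) to 0.53 (Idi1) over the 12. Over all genes the medians were 0.00 or 0.01, with from 7024 of 14386 genes positive (Nestin-Cre PFC HOM) to 7818 of 14813 (AAV-Cre SN HOM). The median SE of a member's log2 fold change was 0.06 or 0.07 in the 6 AAV-Cre comparisons, and in Nestin-Cre mice 0.07 and 0.08 in PFC (HET and HOM), 0.11 in STR and 0.13 in SN.

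In Nestin-Cre PFC, 0 members were called by edgeR in HET mice, with 0% of 14386 genes, and 0 in HOM mice, with 0.25%. Unadjusted p was under 0.05 for 3 members in HET and 7 in HOM mice, against 9.72% and 10.1% of all genes. Without N_PFC_HOM_4568 the HOM count was 3, and 1 of 14361 genes was called. DESeq2 called 1 and 0 members, with 116 and 227 of all genes, and edgeR's likelihood ratio test 1 and 1, with 415 and 310. The median log2 fold change was -0.06 in HET (-0.33 to 0.09, 9 of 27 positive) and -0.08 in HOM mice (-0.35 to 0.22, 8 of 27 positive). Insig1 had the smallest p in both. Its level ran from 44.6 to 66.2 cpm in the 8 WT libraries (median 61.1) and from 39.9 to 53.6 in the 6 HET libraries (median 46.4), and it was 50.8, 41.5, 48.7 and 40.9 cpm in the 4 HOM libraries. The groups overlapped, but all 6 HET and all 4 HOM libraries were below the WT mean of 58.1. The log2 fold change was -0.33 (SE 0.09, adjusted p = 0.247) in HET and -0.35 (SE 0.11, adjusted p = 0.22) in HOM mice. Without library N_PFC_WT_4575, whose mouse has 2 genotype labels, Insig1 passed in HET mice at -0.37 and an adjusted p of 0.0874 (0.00779 to 1 over its alternatives).

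Nestin-Cre STR also had 0 members called by edgeR in HET and 0 in HOM mice, with 0% and 0% of 14494 genes. Unadjusted p was under 0.05 for 2 and 1 members, against 17.3% and 4.62% of all genes. DESeq2 called 0 and 0, with 535 and 1 of all genes, and the likelihood ratio test 1 and 1, with 1242 and 277. The medians were -0.04 in both (10 and 11 of 27 positive). Insig1 again had the smallest p, with 32 to 53.3 cpm in WT (median 42.8), 24.6 to 44.7 in HET (median 31.2) and 24.8 to 38.7 in HOM libraries (median 32.8). It was below the WT mean in 6 of 7 HET and 6 of 6 HOM libraries, and the groups overlapped. The log2 fold changes were -0.35 (SE 0.13, adjusted p = 0.222) and -0.43 (SE 0.14, adjusted p = 0.784). In the same WT, HET and HOM libraries striatal projection neuron markers summed to 9758 ± 1108, 6976 ± 1470 and 8487 ± 1611 cpm and neuron markers to 5435 ± 322, 4537 ± 444 and 5123 ± 719 cpm, and their part was not tested.

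In Nestin-Cre SN, edgeR called 0 members in HET and 0 in HOM mice, with 0% and 0% of 14873 genes. For 4 and 3 members the unadjusted p was under 0.05, against 8.99% and 4.09% of all genes. Without N_SN_HOM_4575 these counts were 5 and 1. DESeq2 called 0 in both, with 5 and 1 of all genes, as did the likelihood ratio test, with 332 and 119. Medians were -0.06 in HET and -0.10 in HOM mice (10 and 7 of 27 positive). Insig1 led here too, with 95.4 to 139 cpm in WT (median 123), 67.5 to 107 in HET (median 94.4) and 68.2 to 106 in HOM libraries (median 92.7). These libraries came mostly from the mice that also gave the PFC and STR libraries. All 7 HET and all 6 HOM libraries were below the WT mean, with some above the lowest WT library. The log2 fold changes were -0.39 (SE 0.13, adjusted p = 0.518) and -0.43 (SE 0.14, adjusted p = 0.892). In the same WT, HET and HOM mice microglia markers summed to 583 ± 111, 439 ± 78.5 and 470 ± 90.9 cpm and astrocyte markers to 6337 ± 994, 5492 ± 717 and 5456 ± 525 cpm. Of these 6 and 8 genes edgeR called 0 and 0 in HET and in HOM mice, with an unadjusted p under 0.05 for 5 and 4 microglia and 1 and 0 astrocyte markers, and their part in the members' values was not tested. When each library was given the median log2 deviation of the 27 members from the WT mean, the lowest value of its group was that of N_SN_HOM_4575 (-0.26), N_STR_HOM_4575 (-0.29) and N_PFC_WT_4575 (-0.17), all of the mouse with 2 labels.

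In AAV-Cre PFC, edgeR called 0 members in HET mice, with 0% of 14628 genes, and 0 in HOM mice, with 0.0137%. Unadjusted p was under 0.05 for 6 and 9 members, against 12.3% and 14.2% of all genes. The likelihood ratio test called 1 and 1, with 248 and 429 of all genes. DESeq2 gave no adjusted p to 21 of the 27 members in either comparison, so its 0 and 0, with 6 and 184 of all genes, cover only the other 6. The medians were 0.07 in HET (-0.09 to 0.36, 19 of 27 positive) and 0.09 in HOM mice (-0.07 to 0.53, 21 of 27 positive). The median deviation of the members from the WT mean was above 0 in 7 of 7 HET and 8 of 8 HOM libraries. It was also above 0 in 4 of 7 WT libraries. This deviation ran from -0.06 to 0.12 in WT, 0.03 to 0.13 in HET and 0.04 to 0.19 in HOM libraries, so the groups overlapped. Sqle had the smallest p, with 58.1 to 68.1 cpm in WT (median 64.1), 68.3 to 79.6 in HET (median 70) and 64.9 to 82.5 in HOM libraries (median 72). All 7 HET libraries were above every WT library, narrowly, and 7 of 8 HOM libraries were. The log2 fold changes were 0.16 (SE 0.05, adjusted p = 0.34) and 0.21 (SE 0.05, adjusted p = 0.141). With the 3 regions of the model in 1 fit, 4 members passed in HOM mice, among them Idi1 at 0.54, Stard4 at 0.34 and Sqle at 0.22, where 460 of 15442 genes passed. Cell type markers were summed in the same libraries: in WT, HET and HOM mice of AAV-Cre PFC, neuron markers summed to 6897 ± 657, 7688 ± 560 and 7823 ± 751 cpm and astrocyte markers to 6527 ± 285, 5752 ± 381 and 5920 ± 591 cpm. Precursor and newly formed oligodendrocyte markers summed to 421 ± 46.5, 357 ± 34.3 and 363 ± 31.9 cpm and microglia markers to 505 ± 60.6, 439 ± 45.1 and 450 ± 49.9 cpm, and their part in the members' values was not tested.

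In AAV-Cre STR, the injected region, edgeR called 0 members in HET and 0 in HOM mice, with 0% and 0% of 14655 genes. Unadjusted p was under 0.05 for 1 and 6 members, against 1.71% and 4.58% of all genes. DESeq2 called 0 in both, with 0 and 5 of all genes, as did the likelihood ratio test, with 56 and 175. Medians were 0.07 and 0.06 (22 and 19 of 27 positive). Mvd had the smallest p in HET mice, with 8.6 to 13.4 cpm in WT (median 10.8) and 12 to 15.2 in HET libraries (median 13.3). All 7 HET libraries were above the WT mean, though the groups overlapped, and the log2 fold change was 0.29 (SE 0.08, adjusted p = 1). In HOM mice it was Fdps, the farnesyl diphosphate synthase, with 20.7 to 24.8 cpm in WT (median 23.3) and 21.4 to 29 in HOM libraries (median 26.8), a log2 fold change of 0.17 (SE 0.06, adjusted p = 1, 6 of 7 above the WT mean).

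In AAV-Cre SN, edgeR called 0 members in HET and 0 in HOM mice, with 0% and 0% of 14813 genes. For 1 and 5 members the unadjusted p was under 0.05, against 4.69% and 7.49% of all genes. Neither DESeq2 nor the likelihood ratio test called any (0 and 0), with 1 and 10 and with 324 and 218 of all genes. Medians were 0.08 and 0.06 (24 and 19 of 27 positive). Fdft1 had the smallest p in HET mice, with 83.5 to 105 cpm in WT (median 100) and 90.4 to 123 in HET libraries (median 106), a log2 fold change of 0.12 (SE 0.06, adjusted p = 0.946, 6 of 7 above the WT mean). Mvk did in HOM mice, with 22.3 to 26.3 cpm in WT (median 24.6) and 24.7 to 29.4 in HOM libraries (median 26.5). All 8 HOM libraries were above the WT mean, at a log2 fold change of 0.15 (SE 0.06, adjusted p = 0.636), and the groups overlapped.

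**Figure D2:**
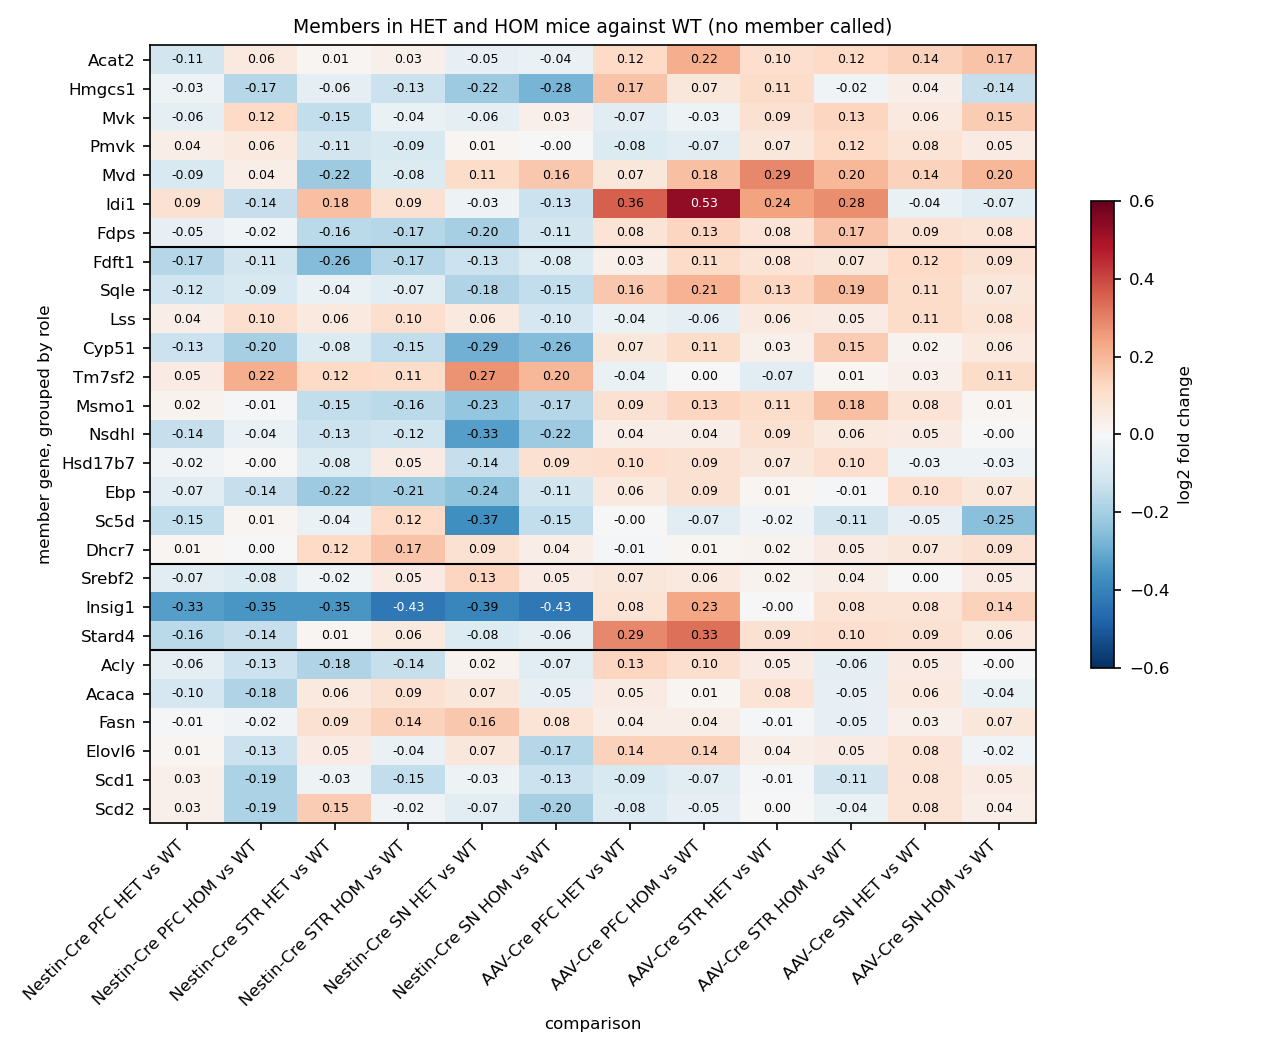
Heat map of log2 fold changes of the 27 members (vertical axis, grouped by role) in the 12 comparisons of HET or HOM with WT (horizontal axis), coloured by log2 fold change. Nestin-Cre columns are mostly negative and AAV-Cre columns mostly positive, with 7 to 11 and 19 to 24 of 27 members positive, and no member is called.

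Because the signs differed by model, the difference between the models in each genotype effect was tested as an interaction in 1 fit per region. In PFC, over 14757 genes, 1 member was called for HET and 6 for HOM, all of them higher in AAV-Cre than in Nestin-Cre mice. For HET this compares with 0.678% of all genes called in either direction and 0.203% called higher, and for HOM with 3.54% and 0.996%. The 6 members are 3 enzymes of cholesterol synthesis (Sqle, Idi1 and Cyp51), the sterol regulation and transport genes Insig1 and Stard4, and Acly. All 6 had a lower WT mean in AAV-Cre than in Nestin-Cre PFC, and the interaction uses these WT libraries. In Nestin-Cre and AAV-Cre WT mice, Sqle was at 74.9 and 63.7 cpm, Cyp51 at 76.4 and 59.4 and Stard4 at 45.1 and 33.7. Idi1 was at 4.49 and 2.93 cpm, Insig1 at 58.1 and 47 and Acly at 233 and 223. How far the WT difference makes up the interaction was not tested. The median over the members was 0.14 for HET and 0.15 for HOM, against 0.01 and 0.01 over all genes.

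Sqle (Entrez Gene 20775) passed for both genotypes. In Nestin-Cre PFC it ran from 66.4 to 84.5 cpm in WT (median 75) and from 65.4 to 72.7 in HET libraries (median 68.1), and it was 69.6, 73, 68.2 and 69.1 cpm in HOM libraries. All mutant libraries there were below the WT mean of 74.9, while in AAV-Cre PFC, with the values above, all were above the WT mean of 63.7. The interaction was 0.28 (SE 0.07, adjusted p = 0.0843) for HET and 0.31 (SE 0.08, adjusted p = 0.0253) for HOM. Without library A_PFC_HET_3676, high in choroid plexus markers, the HET value stayed at 0.28 with an adjusted p of 0.136 (0.0255 to 0.237 over its alternatives), so that 0 members passed for HET. DESeq2 called Sqle and Stard4 for HET, and the likelihood ratio test called Insig1 and Stard4 and not Sqle.

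Insig1 (Entrez Gene 231070) had an interaction of 0.58 (SE 0.16, adjusted p = 0.0473) for HOM. Its AAV-Cre PFC levels ran from 39 to 54.3 cpm in WT (median 47.1) and from 45.3 to 67.3 in HOM libraries (median 55.6), with 6 of 8 above the WT mean. In Nestin-Cre PFC 4 of 4 HOM libraries were below it, as given above. Stard4 (Entrez Gene 170459) differed by 0.48 (SE 0.15, adjusted p = 0.0898). It ran from 36.6 to 54.3 cpm in Nestin-Cre WT (median 46.9) and was 44.4, 41.2, 42.2 and 35.5 cpm in HOM libraries, all below the WT mean, and it ran from 26.9 to 38.3 cpm in AAV-Cre WT (median 33.4) and from 31.1 to 49.9 in HOM libraries (median 43.3), with 7 of 8 above the WT mean.

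Idi1 (Entrez Gene 319554) had the largest interaction, 0.68 (SE 0.21, adjusted p = 0.0922), at the lowest level of the 6. It ran from 3.33 to 5.35 cpm in Nestin-Cre WT (median 4.65) and was 3.09, 4.41, 3.29 and 5.33 cpm in HOM libraries, 3 of them below the WT mean. In AAV-Cre PFC it ran from 2.01 to 3.54 cpm in WT (median 3.04) and from 3.62 to 4.99 in HOM libraries (median 4.35), so that all 8 HOM libraries were above every WT library. Cyp51 (Entrez Gene 13121) differed by 0.31 (SE 0.09, adjusted p = 0.0735). Its range was 66.5 to 86.9 cpm in Nestin-Cre WT (median 77.6), its 4 HOM libraries held 60.9, 66.4, 69.3 and 68.6 cpm, and AAV-Cre WT and HOM libraries ran from 52.8 to 64.6 (median 60.3) and from 59.6 to 70.8 cpm (median 65.2). All 4 Nestin-Cre HOM libraries were below and all 8 AAV-Cre HOM libraries above their WT means.

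Acly (Entrez Gene 104112) differed by 0.24 (SE 0.07, adjusted p = 0.0589). It ran from 215 to 246 cpm in Nestin-Cre WT (median 233) and was 207, 200, 206 and 230 cpm in HOM libraries, and it ran from 203 to 245 cpm in AAV-Cre WT (median 224) and from 221 to 257 in HOM libraries (median 239). The count of 6 rests on few Nestin-Cre HOM mice. It was 1 without N_PFC_HOM_4568 (Sqle), 2 without N_PFC_HOM_4569, 4 without N_PFC_HOM_4393 and 6 without N_PFC_HOM_4580, with 1, 2, 4 and 5 of them among the original 6. Without N_PFC_WT_4575 it was 4, with the calls for Idi1 (0.67) and Stard4 (0.46) lost. DESeq2 called the same 6 and the likelihood ratio test 2 of them. The shares of all genes called in these fits are not given here. A loss of calls by the members therefore cannot be told apart from a loss over all genes.

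**Figure D3:**
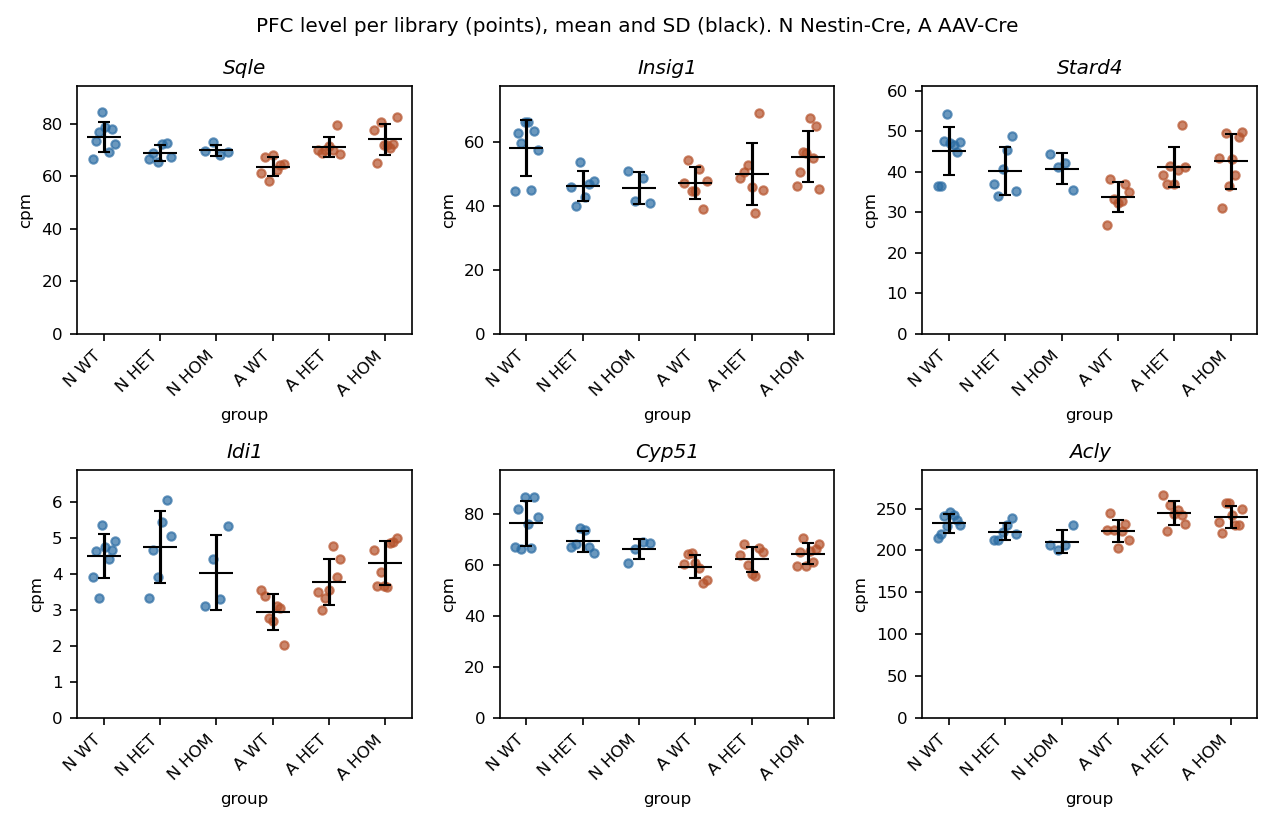
Levels (vertical axis, cpm) of Sqle, Insig1, Stard4, Idi1, Cyp51 and Acly in each PFC library of the 6 groups (horizontal axis); points are libraries and bars give the group mean and SD. Nestin-Cre HET and HOM points tend to lie under their WT mean and AAV-Cre ones over it, with all 8 AAV-Cre HOM libraries of Idi1 above every WT library. Idi1 in Nestin-Cre HET mice is an exception, with 4 of 6 libraries above the WT mean.

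In STR, edgeR called 0 members for HET and 0 for HOM in this interaction, with 0.00673% and 0.0202% of 14857 genes. Unadjusted p was under 0.05 for 3 and 3 members, against 15.5% and 6.67% of all genes, and the likelihood ratio test called 0 and 1. DESeq2 called 0 and 0, but for HET it gave no adjusted p to 17 of the 27 members, Mvd among them. Mvd had the smallest p for HET (0.51, SE 0.14, adjusted p = 0.198) and Insig1 for HOM (0.51, SE 0.19, adjusted p = 0.69). Mvd ran from 13.9 to 20.5 cpm in WT (median 17.8) and from 12.9 to 17.8 in HET libraries (median 15.2) of Nestin-Cre STR. In SN edgeR called 0 members for HET and 0 for HOM, with 0% and 0% of 15108 genes, unadjusted p was under 0.05 for 6 and 4 members, against 14% and 3.32% of all genes, DESeq2 called 0 and 0, and the likelihood ratio test 1 and 1. Nsdhl had the smallest p for HET (0.39, SE 0.14, adjusted p = 0.312) and Insig1 for HOM (0.57, SE 0.18, adjusted p = 0.986). Nsdhl ran from 45.7 to 55.2 cpm in WT (median 51.9) and from 32.6 to 48.9 in HET libraries (median 40.4) of Nestin-Cre SN, and from 28.3 to 37.1 (median 33.9) and from 30 to 38.6 cpm (median 35.2) in AAV-Cre SN. The 2 genotypes overlapped in both models. Whether the PFC interactions differ from those of STR or SN was not tested.

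Cell type markers were read beside these values. The 12 mature oligodendrocyte markers summed to 5644 ± 936 cpm in WT, 4257 ± 303 in HET and 4147 ± 874 in HOM mice of Nestin-Cre PFC, and to 4976 ± 442, 4661 ± 480 and 4911 ± 400 cpm in AAV-Cre PFC. In the PFC interaction 4 of the 12 were called higher for HET and 4 for HOM, with medians of 0.40 and 0.42. In Nestin-Cre STR they summed to 9090 ± 2407, 7901 ± 1651 and 7061 ± 1674 cpm and in SN to 27584 ± 6563, 22828 ± 2959 and 21446 ± 3395 cpm, and in AAV-Cre SN to 17217 ± 2571, 19314 ± 2838 and 18293 ± 2536 cpm. Striatal projection neuron markers summed to 539 ± 151, 320 ± 59.5 and 351 ± 106 cpm in Nestin-Cre PFC and to 931 ± 369, 908 ± 226 and 829 ± 312 cpm in AAV-Cre PFC. The part of either list in the members' interaction was not tested. Of the other lists, 1 of 8 astrocyte markers was called lower for HET. The medians for HOM were -0.13 over astrocyte, 0.18 over neuron, -0.15 over microglia, -0.10 over endothelial and -0.11 over precursor and newly formed oligodendrocyte markers, and 0.15, 0.23 and 0.15 over choroid plexus, cortical and dopamine neuron markers.

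**Figure D4:**
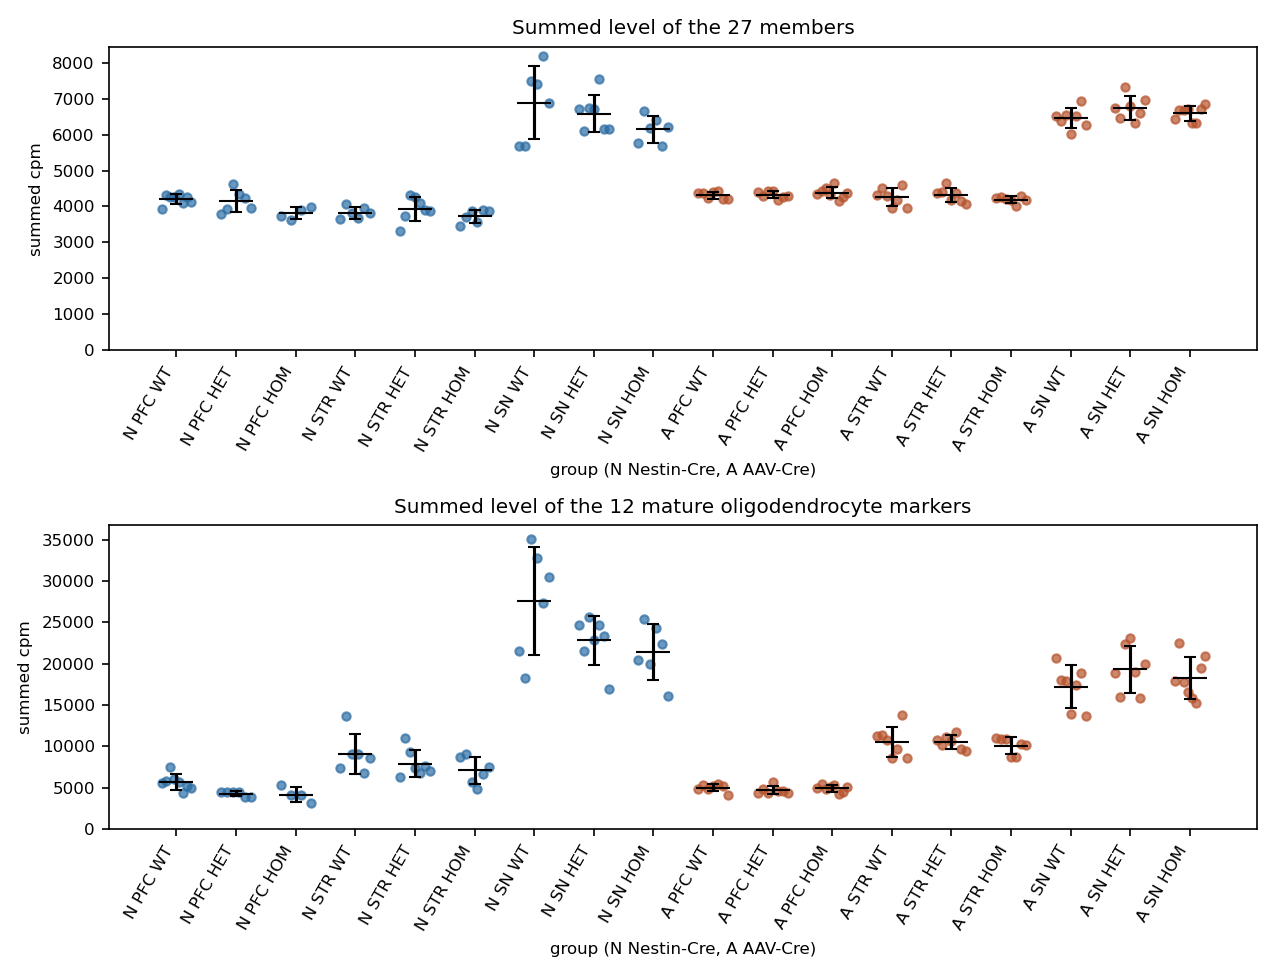
Summed cpm (vertical axis) of the 27 members and of the 12 mature oligodendrocyte markers in each library of the 18 groups (horizontal axis); points are libraries and bars give the mean and SD. Both sums are highest in SN, with member sums of 6889 ± 1023 and 6456 ± 287 cpm in WT mice.

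Other genes of the pathway that are not members were given by a list of 21, of which 20 are in the table (Faxdc2 is not). In Nestin-Cre WT mice 13 of the 20 were called higher and 7 lower in SN than in PFC, 16 and 3 in SN than in STR, and 8 and 8 in STR than in PFC, with 14 and 5, 16 and 3, and 8 and 7 in AAV-Cre WT mice. The shares of all genes in the same order were 37.6% and 41.2%, 37.8% and 38.3%, and 34.2% and 34% in Nestin-Cre mice. In AAV-Cre mice they were 37.7% and 36.4%, 39.7% and 35.9%, and 33.8% and 31.8%. Largest in Nestin-Cre SN against PFC were Elovl1 (1.91), Elovl7 (1.88) and Elovl5 (1.32), elongases of longer fatty acids, and Scap was lower (-0.57).

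Between the models, 10 of the 20 were called higher and 6 lower in AAV-Cre PFC, 6 and 3 in STR, and in SN 7 and 9 of 19 tested. Of all genes, 24.3% and 22.6% were called higher and lower in PFC, 32% and 29.9% in STR and 30.5% and 31.9% in SN. Srebf1, which encodes the SREBP-1 factors of fatty acid synthesis, was higher in AAV-Cre PFC (0.60, SE 0.09, adjusted p = 0.000207) and STR (0.80, SE 0.07, adjusted p = 7.01e-06). In SN, Elovl1 (-0.98), Elovl5 (-0.66) and Elovl7 (-0.49) were lowest. The region difference was called as dependent on the model for 2 genes upward and 0 downward in STR against PFC. The counts were 3 and 4 in SN against PFC, and 2 and 4 in SN against STR. Of all genes, 15.2% and 14.1%, 25.3% and 19.8%, and 19.3% and 14.7% were called upward and downward in the same order.

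A list of 15 genes of cholesterol export, uptake, storage and breakdown had 14 tested in these fits, since Ch25h was near 0. In Nestin-Cre WT mice 9 were called higher and 4 lower in SN than in PFC, 10 and 2 in SN than in STR, and 4 and 4 in STR than in PFC. The AAV-Cre counts were 10 and 1, 8 and 2, and 8 and 2. The shares of all genes in the same order were 37.6% and 41.2%, 37.8% and 38.3%, and 34.2% and 34% in Nestin-Cre mice. In AAV-Cre mice they were 37.7% and 36.4%, 39.7% and 35.9%, and 33.8% and 31.8%. Cyp46a1, the neuronal hydroxylase by which cholesterol leaves the brain, was lowest in SN against PFC in both models, at -2.06 and -1.74, and Cyp27a1, another sterol hydroxylase, was highest, at 2.19 and 1.99. AAV-Cre WT mice had 7 of the 14 called higher and 0 lower in PFC, 7 and 1 in STR, and 6 and 3 in SN. Here the shares of all genes were 24.3% and 22.6%, 32% and 29.9%, and 30.5% and 31.9%. Lrp1, a receptor for lipoproteins with apolipoprotein E, was higher in all 3 regions, at 0.42, 0.89 and 1.05, and Apoe was higher in PFC (0.59) and lower in SN (-0.34). The region difference depended on the model for 5 genes upward and 2 downward in STR against PFC, 3 and 3 in SN against PFC, and 2 and 4 in SN against STR. For all genes these shares were 15.2% and 14.1%, 25.3% and 19.8%, and 19.3% and 14.7%.

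The members lie on many chromosomes of mm10. Scd1 and Scd2 are neighbours on chromosome 19, from 44394450 to 44407709 and from 44293676 to 44306862, and Nsdhl and Ebp are on X. Promoter letters are a feature that the choice of members did not use. RefSeq windows of the 250 bases before the start of the gene (GRCm38.p6) were at hand for 21 of the 27 members, and not for Fdft1, Fdps, Scd1, Scd2, Sqle and Stard4. The letters CCAAT, bound by NF-Y, which works with SREBP factors, were on either strand in 17 of the 21 windows (81%), against 10133 of 27025 genes with a window (37.5%). The sterol regulatory letters TCACNCCAC were in 1 of the 21 (4.76%), Hmgcs1, against 331 of 27025 (1.22%). The 27025 are all genes with a window, whether or not they were tested here, while every member was tested. A match is a description and not a measured site.

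The windows are those of Insig1 (chr5:28071162-28071411, plus strand), the member with the smallest p in the Nestin-Cre comparisons, of Idi1 (chr13:8885356-8885605, plus strand) and Cyp51 (chr5:4104698-4104947, minus strand), which passed in the PFC interaction, and of Hmgcs1 (chr13:119690101-119690350, plus strand), which holds both kinds of letters. Their letters run 5′ to 3′ along the gene, and capitals mark CCAAT, read ATTGG where it is on the other strand, and TCACNCCAC.
Insig1: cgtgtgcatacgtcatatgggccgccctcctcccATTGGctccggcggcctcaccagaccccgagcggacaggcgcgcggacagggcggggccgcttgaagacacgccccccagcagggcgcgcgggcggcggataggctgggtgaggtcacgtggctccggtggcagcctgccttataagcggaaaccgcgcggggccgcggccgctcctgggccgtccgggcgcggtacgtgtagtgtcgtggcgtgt
Idi1: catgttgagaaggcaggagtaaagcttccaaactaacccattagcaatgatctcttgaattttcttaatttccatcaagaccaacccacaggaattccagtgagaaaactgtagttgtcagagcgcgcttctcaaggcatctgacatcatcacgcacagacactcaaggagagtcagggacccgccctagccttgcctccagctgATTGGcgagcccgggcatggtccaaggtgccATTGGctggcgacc
Cyp51: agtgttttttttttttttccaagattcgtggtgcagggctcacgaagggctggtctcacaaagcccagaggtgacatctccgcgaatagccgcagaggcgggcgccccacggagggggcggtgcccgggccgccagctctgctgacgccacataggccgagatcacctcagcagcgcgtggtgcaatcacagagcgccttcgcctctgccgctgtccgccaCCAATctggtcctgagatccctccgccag
Hmgcs1: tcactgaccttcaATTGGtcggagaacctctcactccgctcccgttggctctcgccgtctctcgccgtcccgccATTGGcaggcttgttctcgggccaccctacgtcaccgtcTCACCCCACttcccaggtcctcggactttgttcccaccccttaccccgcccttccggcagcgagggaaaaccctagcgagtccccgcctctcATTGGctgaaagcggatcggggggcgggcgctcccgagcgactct
The windows hold CCAAT 1 time in Insig1, 2 in Idi1, 1 in Cyp51 and 3 in Hmgcs1.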

How the data were processed

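RNA of 121 samples, 1 per mouse and region, had been prepared with a stranded mRNA kit and sequenced as single reads. The authors made the reads with bcl2fastq 2.20.0.422, aligned them to mm10 with STAR 2.5.2b and counted those in annotated exons with featureCounts 1.5.1. The deposited table holds raw counts of 24412 genes, 6 of them without a symbol, and the strand setting of the counting is not stated.

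Groups were model, region and genotype as labelled. Tests used R 4.3.3 and edgeR 4.0.16: TMM scaling, genes with at least 1 cpm in 3 libraries of the fit, quasi-likelihood F tests on the trended dispersion, and Benjamini-Hochberg adjustment over all genes of a fit, with calls at an adjusted p under 0.1. The standard error is the log2 fold change divided by the root of F. Genotypes were compared with WT within a region and model, regions and models within WT, and differences of these between models as interactions. Library totals ran from 9869584 to 26750905, and the precision this gives with the spread between mice is in the standard errors. Calling was also tested on simulated data, and the outcome of that test is not given here.

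Regions of a mouse were checked as pairs. The median correlation of a mouse's deviations from its group means, over genes, was 0.264 for STR and PFC, 0.176 for SN and PFC and 0.240 for SN and STR in Nestin-Cre mice (15, 15 and 18 mice), against -0.013, -0.004 and -0.012 for different mice. In AAV-Cre mice it was 0.257, 0.182 and 0.204 (21, 22 and 21 mice), against -0.010, -0.014 and -0.002. Mouse as a replicate block is therefore among the alternatives.

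All 27 members are named. Library values are given for members called in a genotype comparison or, with none called, for the member with the smallest p. For region and model comparisons the 3 highest and 3 lowest log2 fold changes are given, and for the 2 further lists at most 3 called genes each way. Members and lists were chosen with earlier results of these data known. The marker lists were mature oligodendrocyte, oligodendrocyte precursor and newly formed oligodendrocyte, astrocyte, neuron, microglia, endothelial, choroid plexus, striatal projection neuron, cortical excitatory neuron and midbrain dopamine neuron.

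Alternatives were edgeR's likelihood ratio test, DESeq2 1.42.0, edgeR with the size factors of DESeq2, testing every gene with a count, an adjusted p under 0.05, leaving out the mouse of N_PFC_WT_4575, leaving out each Nestin-Cre PFC HOM mouse, all 3 regions of a model in 1 fit, all 3 genotypes in the WT fits, and mouse as a replicate block. Leaving out libraries high in choroid plexus markers, and leaving out 6 STR or SN libraries high in markers of another region, were chosen after seeing the data. No library was left out otherwise. Shares or numbers of all genes called are given beside the main counts, and beside the counts of an alternative only where stated.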

Additional observations from a re-analysis of the deposited data

Results flagged for a closer look

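In the PFC of AAV-Cre HET mice, library A_PFC_HET_3688 stood apart from the other 6 for Sqle (79.6 cpm) and Stard4 (51.5 cpm), by the gap to its nearest neighbour. These are 2 of 54 group checks over 10 members, and chance flags about 1 in 20 groups.

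The other results are tested differences between the models. In PFC, 1 member differed in its HET effect, Sqle at 0.28, and 6 in their HOM effect, Idi1 at 0.68, Insig1 at 0.58, Stard4 at 0.48, Sqle at 0.31, Cyp51 at 0.31 and Acly at 0.24. Of all genes 0.678% were called for HET and 3.54% for HOM, with 0.203% and 0.996% called higher. Without A_PFC_HET_3676 the HET count was 0, and without N_PFC_HOM_4568 the HOM count was 1.

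Among WT mice, the difference between STR and PFC depended on the model for 15 members, led by Acaca (0.42), Stard4 (0.40) and Elovl6 (0.39) on the higher and Mvd (-0.56), Msmo1 (-0.55) and Hmgcs1 (-0.45) on the lower side. That between SN and PFC did for 16 members, led by Fasn (0.46), Acaca (0.45) and Elovl6 (0.45), and by Msmo1 (-0.69), Ebp (-0.52) and Fdft1 (-0.48). That between SN and STR did for 5, Mvd (0.43), Srebf2 (0.24), Scd1 (-0.39), Scd2 (-0.37) and Ebp (-0.30). Of these, Srebf2, Scd1 and Ebp each lost the call under an alternative, as given above. For STR against PFC 15.2% of all genes were called higher and 14.1% lower. The shares were 25.3% and 19.8% for SN against PFC and 19.3% and 14.7% for SN against STR. The models differ in age, source of Cre, injection and cohort, which cannot be told apart.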

How the results depend on the processing

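Over the alternatives, 231 of 257 counts of called members stayed within 1.5 times their value and 26 did not. Shares of all genes called are not given beside the counts of this section. Of 1062 values of single members, 993 kept their direction and their side of the threshold, 43 lost a call, 21 gained one and 5 reversed. For the WT comparisons of regions within a model and of models within a region, the counts of both directions together all stayed within 1.5 times, as did all 30 counts with DESeq2 size factors. With all 3 genotypes in the fit, the members called higher in AAV-Cre mice went from 3 to 7 in PFC and from 3 to 5 in SN, and those called lower from 12 to 9 in PFC and from 16 to 17 in SN.

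The likelihood ratio test called 1 member in HET and 1 in HOM mice in Nestin-Cre PFC, in Nestin-Cre STR and in AAV-Cre PFC, where the main test called 0. It called 2 for the HET and 2 for the HOM interaction in PFC, 1 for HOM in STR, 1 for HET and 1 for HOM in SN, and 3 for SN against STR between models. DESeq2 called 1 member in Nestin-Cre PFC HET mice and 2 for the HET interaction in PFC. Without N_PFC_WT_4575 and the other libraries of its mouse, 1 member was called in Nestin-Cre PFC HET mice. With all 3 regions in 1 fit, 1 was called in Nestin-Cre STR HET, 1 in AAV-Cre PFC HET and 4 in AAV-Cre PFC HOM mice.

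The HET interaction in PFC had 0 members called by edgeR with no filter, without the libraries high in choroid plexus markers (an alternative chosen after seeing the data) and at an adjusted p under 0.05, where its unadjusted p was under 0.05 for 6 members with the filter and all libraries. The HOM interaction in PFC had 2 at an adjusted p under 0.05, and 1 to 6 when 1 Nestin-Cre HOM mouse was left out. SN against STR between models had 3 at an adjusted p under 0.05 and 3 without the libraries high in markers of another region, also an alternative chosen after seeing the data.

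Tm7sf2 in Nestin-Cre SN against STR, at 0.00, reversed to -0.006 with no filter and to -0.04 with mouse as a replicate block. Srebf2 in AAV-Cre SN against STR, at 0.02, reversed to -0.005 with no filter, to -0.02 without the choroid plexus libraries and to -0.02 with all 3 genotypes. Neither was called. A stricter threshold lowers a count by construction, and otherwise the cause was not tested. The median SE of the members in the genotype comparisons ran from 0.06 to 0.13, and at this depth and number of mice differences of up to 0.53 (Idi1, AAV-Cre PFC HOM) were not called. DESeq2 gave no adjusted p to 21 of 27 members in AAV-Cre PFC HET and HOM mice and to 17 for the HET interaction in STR.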
